A study of Mus musculus with 20 samples.

Results

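The group described here was male Swiss-Webster mice taken after 8 days of repeated social stress, compared with undisturbed brothers of the same age. It was 5 of the 20 arrays of the series, which hold 3 of its 12 pairs of RNA pools. In the series, pool 1 has 1 array, with the stress RNA in red (Cy5). Pools 2 and 3 each have such an original array and a dye-swap array with the stress RNA in green (Cy3). The paper describes as many dye-swap arrays as originals, but the series holds none of pool 1. Each pool held equal amounts of RNA from 3 mice, so an individual mouse cannot be seen. Mice of both groups were housed alone from 12 weeks of age, in separate adjacent rooms for stressed mice and controls, and those with the most RNA were chosen for the pools. Each stressed mouse was placed as an intruder into cages of older group-housed males, and the tissue was taken 1 day after the last encounter. The sample was a slice of the frontal pole, which holds orbital, prelimbic and frontal association cortex. The other time points, each with controls of its own, were acute stress, 13 days of stress, and 13 days of stress with 5 days of rest. All values are log2 ratios of stress over control from the same array, with arrays of a pool averaged, so that n is 3 pools. Each standard error (SE) is that of limma, from a spread estimated over the pools of all time points, not from these 3 pools alone. Of 39429 probes, 26982 (68.4%) were well above background in at least 1 channel on each of the 5 arrays, and these were read as measured. They named 17246 genes.

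Social defeat by unfamiliar males raises adrenal glucocorticoids and alters blood flow, vessel walls and immune cells throughout the body. Brain tissue taken with its blood contains red cells, whose hemoglobin RNA is carried over from their nucleated precursors, and vessels and meninges, whose fibroblasts and smooth muscle make an extracellular matrix. Hemoglobin is a tetramer of alpha chains, encoded by Hba-a1 and Hba-a2, and beta chains, encoded by Hbb-b1, Hbb-b2 and Beta-s, and Alas2 is the erythroid enzyme that starts heme synthesis. Neurons can also make some hemoglobin.

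The regions upstream of the adult hemoglobin genes and of Alas2 are shown because these genes lay together in the data. The 120 bases before the start of each gene are from RefSeq (GRCm38.p6), with matches in capitals to CACCC, to the sequence CCAAT and to the sequence TATAA, each searched on both strands.
Hbb-bt (Hbb-b1 on the array), minus strand, chr7:103813924-103814043: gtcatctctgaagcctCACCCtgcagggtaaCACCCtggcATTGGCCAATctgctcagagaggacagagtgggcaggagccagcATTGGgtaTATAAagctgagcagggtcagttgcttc
Hbb-bs (Beta-s on the array), minus strand, chr7:103827929-103828048: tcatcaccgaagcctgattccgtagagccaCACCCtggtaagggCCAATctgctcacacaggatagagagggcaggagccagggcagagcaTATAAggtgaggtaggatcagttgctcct
Hba-a1, plus strand, chr11:32283552-32283671: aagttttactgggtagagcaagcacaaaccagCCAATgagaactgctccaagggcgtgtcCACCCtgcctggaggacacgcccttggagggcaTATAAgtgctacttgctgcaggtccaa
Alas2, plus strand, chrX:150547297-150547416: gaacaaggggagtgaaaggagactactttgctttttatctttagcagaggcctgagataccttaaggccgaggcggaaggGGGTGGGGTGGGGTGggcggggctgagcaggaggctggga
The alpha gene held each of the 3 sequences 1 time, as did Hbb-bs, and Alas2 held only CACCC. Among all 32851 RefSeq promoter windows of this length, 31.7% held the first of these sequences, 21.3% the second and 11.8% the third. In Hbb-bt, matches to the second on both strands lie side by side. The Hba-a2 window was identical to that of Hba-a1 over the 117 bases that overlap at a shift of 3, and the Hbb-bt and Hbb-bs windows shared 88 of 119 bases.

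Probes on the array read different stretches of these genes. The probes of Hba-a1 and Hbb-b2 are shown because both passed the test in the fit of single arrays described further on.
Hba-a1, chr11:32183955-32184014 (mm9, the build of the array): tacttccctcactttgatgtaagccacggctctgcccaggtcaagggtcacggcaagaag
Hbb-b2, no position on the array: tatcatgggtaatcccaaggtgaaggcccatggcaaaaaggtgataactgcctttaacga
Alpha genes are nearly identical to each other, as are beta genes, so a signal may come in part from the neighbouring copy.

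On average over 3 pools, no probe passed the threshold of an adjusted p (Benjamini-Hochberg over 39429 probes) under 0.05 with a log2 ratio over 0.5 in size. The share called was therefore 0%, and the lowest adjusted p in limma was 0.407, for Mgp. The unadjusted p was under 0.05 for 944 probes, of which 829 were among the 26982 measured ones (3.07%). Of the measured probes, 1883 (6.98%) were higher and 3140 (11.6%) lower in 3 of 3 pools. The median size of the log2 ratio was 0.03, and the median standard error was 0.05. With the slide as a block in a fit of the 20 single arrays, 4 probes (0.0101%) passed, all of them higher after stress: Mgp, Hba-a1, Hbb-b1 and Hbb-b2. In that fit the correlation between arrays of the same pool was 0.05, so that arrays counted almost as separate samples.

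Hemoglobin transcripts were 1.42 to 1.76 times as abundant in stressed as in control cortex, and each of the 5 adult chains was higher in 3 of 3 pools. Among all measured genes, 6.77% were higher in 3 of 3 pools. Hbb-b1 (chr7:110961105-110961164), a beta chain, had log2 ratios of 0.72 in pool 1, 1.04 and 1.12 on the original and swapped arrays of pool 2, and 0.55 and 0.74 on those of pool 3. It was above 0 on every array, with pool 2 the highest. The mean was 0.82 ± 0.19 (SE, n = 3; limma unadjusted p = 0.000818, adjusted p = 1.00; with the slide as a block, adjusted p = 0.0302).

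Hba-a1, an alpha chain, had 0.60 in pool 1, 0.85 and 0.97 in pool 2, and 0.60 and 0.79 in pool 3. These 5 values spanned less than those of any other hemoglobin probe, and pool 2 was again the highest. The mean was 0.73 ± 0.16 (SE; limma adjusted p = 1.00; with the slide as a block, 0.0472). Hba-a2 (chr11:32197245-32197304) had a mean of 0.81 ± 0.18, with pools at 0.67, 0.95 and 0.80, and did not pass in either fit (limma, adjusted p = 0.0889 with the slide as a block). Hbb-b2 had pools at 0.60, 0.89 and 0.53 and a mean of 0.67 ± 0.16, and Beta-s (chr7:110976379-110976438) had pools at 0.42, 0.64 and 0.45 and a mean of 0.50 ± 0.13.

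Alas2 (chrX:147004993-147005052) lay at 0.48 in pool 1, at 0.17 and 0.86 on the arrays of pool 2 and at 0.06 and 0.52 on those of pool 3. All 5 values were above 0, and in pools 2 and 3 the original array lay far below its swap. The mean was 0.43 ± 0.11 (SE; limma unadjusted p = 0.0025). In the ratios of the scanner software, which are not shrunk at low signal, Alas2 lay at 0.61, 1.00 and 0.80 in the 3 pools, with a mean of 0.80 ± 0.20.

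**Figure D1:**
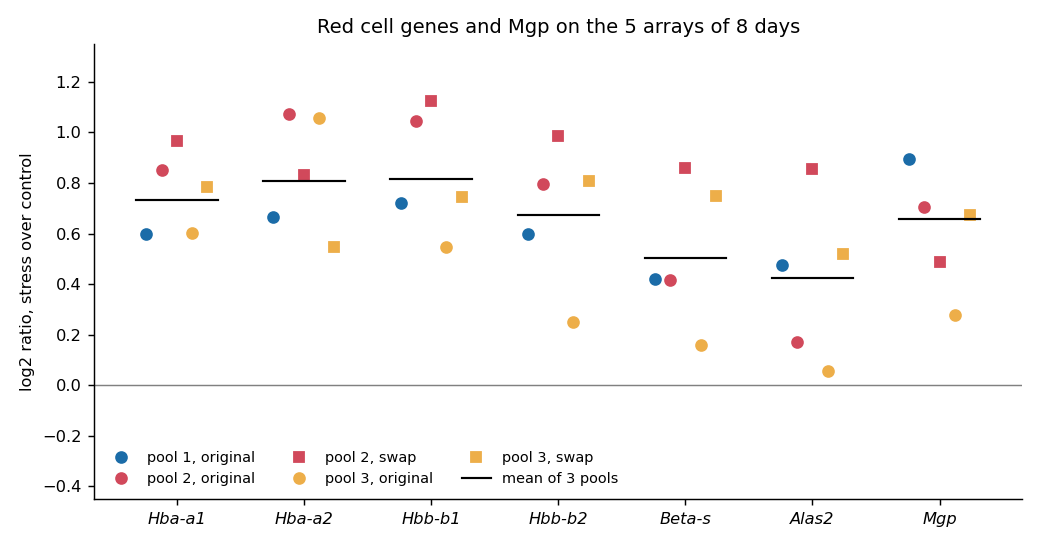
Log2 ratio of stress over control on each of the 5 arrays of 8 days (circles, original; squares, dye swap; colours, pools; bars, mean of the 3 pools) for the hemoglobin chains, Alas2 and Mgp. All points lie above 0, between 0.06 for Alas2 on the original array of pool 3 and 1.12 for Hbb-b1 on the swapped array of pool 2.

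Other transcripts of blood lay nearer 0 or differed between pools. Of 13 red cell membrane, enzyme and regulator genes, 5 were measured, and these lay between -0.02 and 0.09, with Slc4a1, the anion exchanger of red cells, at 0.09 ± 0.18 (0.26 ± 0.49 in the scanner software's ratios). Klf1, Gata1 and Ahsp, which mark red cells and their precursors, were not among the measured probes. Of 12 genes of heme synthesis and iron, Alas2 was the only one past an unadjusted p under 0.05. The other enzymes, which all cells use, lay between -0.10 (Alad) and 0.05 (Ppox). The 5 measured platelet genes lay between -0.12 (Treml1) and 0.02 (Pf4). Ppbp, a platelet chemokine, was well above background in the stress channel on 4 arrays and in the control channel on 0, so its ratio was not read. Among neutrophil genes, S100a9 lay at -1.16, 0.81 and -0.39 in the 3 pools and S100a8 at -0.78, 0.53 and -0.31. These have no common direction, and pool 2 was the highest for both, as for the hemoglobin chains. The part that residual blood had in the hemoglobin values was not tested.

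Mgp, matrix Gla protein, an inhibitor of calcification made by vascular smooth muscle and meningeal fibroblasts, had the lowest p of all probes. Its probe (chr6:136821125-136821184) lay at 0.90 in pool 1, 0.70 and 0.49 on the arrays of pool 2, and 0.28 and 0.68 on those of pool 3. All 5 arrays were above 0, and pool 1 was the highest. The mean of 0.66 ± 0.09 (SE, n = 3), or 1.58-fold, had an unadjusted p of 1.03e-05 in limma (adjusted p = 0.407), and an adjusted p of 8.77e-05 with the slide as a block. With the replicate number as a block, which goes with the slides, it was 0.00174. Leaving out each pool in turn moved the mean between 0.54 and 0.75.

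Further genes of matrix, fibroblasts and surface linings stood among the 12 genes of lowest p that were higher in 3 of 3 pools. Fn1, fibronectin, lay at 0.40, 0.25 and 0.22 (mean 0.29 ± 0.05). Pcolce, which speeds the trimming of procollagen, lay at 0.43, 0.16 and 0.22 (mean 0.27 ± 0.06). Prg4, a lubricating proteoglycan, had a mean of 0.28 ± 0.06 and Msln, mesothelin, a surface protein of mesothelial cells, one of 0.24 ± 0.05 (0.48 ± 0.11 and 0.42 ± 0.11 in the scanner software's ratios). Vim, the intermediate filament of mesenchymal cells and reactive astrocytes, lay at 0.42, 0.19 and 0.18 (mean 0.26 ± 0.05). Apod, a lipid carrier made by perivascular cells and glia, lay at 0.37, 0.32 and 0.45 (mean 0.38 ± 0.07; limma adjusted p = 0.0302 with the slide as a block, at a ratio under 0.5). Its second probe, which was much dimmer, lay at -0.11 ± 0.13. The list also held Fxyd5, a modulator of the sodium pump (0.17 ± 0.04).

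**Figure D2:**
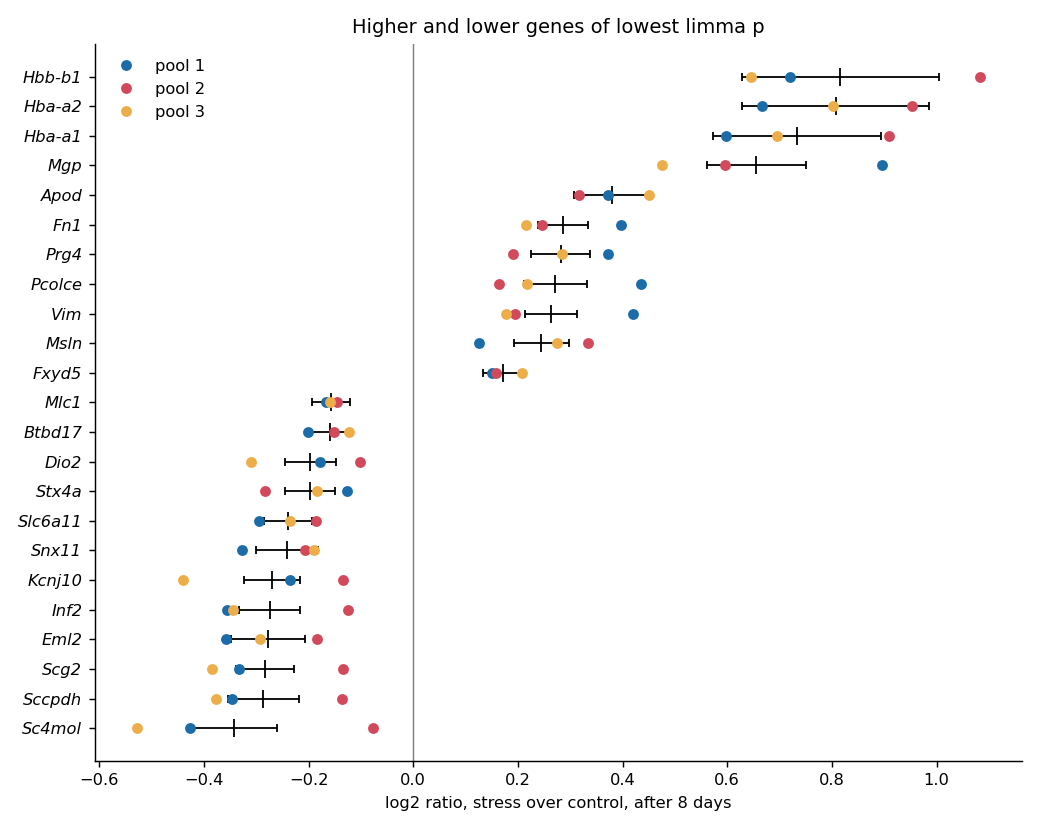
Log2 ratio of stress over control in each of the 3 pools (colours) and mean ± SE from limma (black) for 11 of the 12 higher genes and the 12 lower genes of lowest p among those that lay the same way in 3 of 3 pools. Means run from 0.82 for Hbb-b1 to -0.34 for Sc4mol, and outside the hemoglobin genes, Mgp and Apod they lie within 0.35 of 0.

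As a whole list, 19 genes of meninges and vessel wall matrix were all measured. Of these, 7 were higher and 0 lower in 3 of 3 pools, against 6.77% and 11.9% of all measured genes. At an unadjusted p under 0.05, 4 were higher, against 1.01% of all measured genes (175 higher, with 430 lower). In the ratios of the scanner software 449 of all measured genes were higher and 456 lower. The 4 genes were Mgp, Nov (0.27), Col3a1 (0.24) and Fbln1 (0.26). Nov and Fbln1 encode matrix proteins and Col3a1 a fibrillar collagen. Their largest values lay in pool 1, where the list's median was 0.40, against -0.06 in pool 2 and 0.06 in pool 3. The series holds no dye swap of pool 1. In the ratios of the scanner software the list's median was 0.43, -0.18 and 0.23, Col3a1 lay at 0.69, 0.34 and 0.37 (mean 0.47 ± 0.10) and Fbln1 at 0.74, 0.50 and 0.34 (mean 0.52 ± 0.14). In the ratios corrected here, without pool 1, 1 gene of the list was higher and 1 lower at an unadjusted p under 0.05, and the median was 0.01, against 0.10 with it. Timp1, an inhibitor of matrix proteases, lay at 0.47, 0.31 and 0.17, with a standard error, pooled over all time points, of 0.39. In the scanner software's ratios it lay at 1.26, 1.00 and 1.17 (mean 1.14 ± 0.59).

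Of 11 measured pericyte and smooth muscle genes, 4 were higher in 3 of 3 pools, against 6.77% of all measured genes. Those past an unadjusted p under 0.05 were 2, Rgs5 (0.18) and Myh11 (0.14), against 1.01% higher among all. Without pool 1 none of them did, and the list's median was 0.03, against 0.11 with it. Of 17 endothelial genes, 6 were higher and 0 lower in 3 of 3 pools, against 6.77% and 11.9% of all measured genes. Vwf, a clotting protein of endothelium, lay at 0.59, 0.03 and 0.59 (mean 0.40 ± 0.12). In the ratios of the scanner software, 2 endothelial genes were higher in 3 of 3 pools, as were 2 of pericytes and smooth muscle. There Vwf lay at -0.07 in pool 2. The junction protein Cldn5 lay at 0.08 ± 0.05. Of 10 measured choroid plexus genes, 2 passed at an unadjusted p under 0.05 and were higher, against 1.01% of all measured genes, and none did without pool 1 and 1 without pool 2 or pool 3. These were Enpp2 (0.12) and 1500015O10Rik, augurin, at 0.39, 0.28 and 0.12 (0.26 ± 0.10; 0.58 ± 0.13 in the ratios of the scanner software), while Ttr, the most specific product of that tissue, lay at 0.13 ± 0.38.

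The 12 genes of lowest p that were lower in 3 of 3 pools included several of astrocytes, the glial cells that clear transmitters and potassium. Among all measured genes, 11.9% were lower in 3 of 3 pools. Slc6a11, the GABA transporter GAT3, lay at -0.30 in pool 1, 0.04 and -0.41 on the original and swapped arrays of pool 2, and 0.02 and -0.50 on those of pool 3. The values were low only where pool 1 or a swapped array was read, and both other original arrays lay at about 0. The mean was -0.24 ± 0.05 (SE; limma unadjusted p = 0.000178). Kcnj10, the potassium channel Kir4.1, lay at -0.24, -0.13 and -0.44 (mean -0.27 ± 0.05). Mlc1, a membrane protein of astrocyte endfeet, lay at -0.17, -0.15 and -0.16 (mean -0.16 ± 0.04) and was below 0 on all 5 arrays. Dio2, which activates thyroid hormone, had a mean of -0.20 ± 0.05.

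The remaining lower genes of lowest p had several roles. Scg2, a granin of secretory vesicles, lay at -0.33, -0.13 and -0.38 (mean -0.28 ± 0.06; limma adjusted p = 0.0472 with the slide as a block, at a size under 0.5). Sc4mol, a sterol oxidase of cholesterol synthesis now named Msmo1, lay at -0.43, -0.08 and -0.53 (mean -0.34 ± 0.08). Inf2, an actin regulator, had a mean of -0.27 ± 0.06, Stx4a, a syntaxin of the plasma membrane, -0.20 ± 0.05 (its second probe, -0.05 ± 0.05), Snx11, a sorting nexin, -0.24 ± 0.06, and Eml2, a microtubule-binding protein, -0.28 ± 0.07. Sccpdh was at -0.29 ± 0.07 and Btbd17 at -0.16 ± 0.04. Snx11 had 2 further measured probes, at -0.05 and -0.10.

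In the astrocyte list itself, which holds none of these 4 genes, 15 genes were measured and 2 passed at an unadjusted p under 0.05. These were S100b (-0.14), a calcium-binding protein, and the gap junction protein Gjb6 (-0.14), both lower, against 2.49% of all measured genes. Without pool 1 no gene of the list was lower at that threshold and 1 was higher, and in the scanner software's ratios none passed. The median was -0.04, and the defining markers Aqp4 (-0.04), Aldh1l1 (-0.04) and Gja1 (0.00) lay near 0. Gfap, the filament that rises in reactive astrocytes, lay at 0.36, -0.29 and 0.12. Among 13 injury and gliosis genes, 2 were higher at an unadjusted p under 0.05, against 1.01% of all measured genes. These were Vim and Hspb1, a small heat shock protein (0.27, 0.34 and 0.08, mean 0.23 ± 0.06).

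Several enzymes of cholesterol synthesis lay lower. Of 18 measured genes of synthesis and uptake, 7 were lower in 3 of 3 pools, against 11.9% of all measured genes. At an unadjusted p under 0.05, 6 were lower, against 2.49% of all measured genes. Srebf2 was the only gene of the list higher in 3 of 3 pools, at 0.06. Those 6 were Sc4mol (-0.34), Hmgcs1 (-0.23), which makes the precursor of mevalonate, Idi1 (-0.22), Sqle (-0.22), the squalene epoxidase, Fdps (-0.17) and Mvd (-0.11). The median was -0.09 over the list, and -0.09, -0.02 and -0.15 in the 3 pools. It was -0.06 after acute stress, where Hmgcs1 lay at -0.24, -0.05 after 13 days and -0.01 after rest. Without pool 3 only 1 gene of the list was lower at an unadjusted p under 0.05, and without pool 1 there were 4.

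Among the genes of the stress axis, 8 corticosteroid receptor and CRH genes were measured. Of these, 4 were lower and 0 higher in 3 of 3 pools, against 11.9% and 6.77% of all measured genes. Hsd11b1, the enzyme that regenerates active glucocorticoid, lay at -0.16, -0.18 and -0.21 (mean -0.19 ± 0.05, limma unadjusted p = 0.00199; mean -0.32 ± 0.08 in the scanner software's ratios). In pools 2 and 3 its original arrays lay at -0.01 and -0.08 and the swaps at -0.36 and -0.35. Crh, corticotropin-releasing hormone, lay at -0.30, -0.05 and -0.16 (mean -0.17), and Crhbp, its binding protein, at -0.19, -0.10 and -0.05 (mean -0.12). These 3 genes passed an unadjusted p under 0.05, against 2.49% lower among all measured genes, and without pool 1 only 1 gene of the list did. Nr3c1, the glucocorticoid receptor, lay at -0.13, and Nr3c2, the mineralocorticoid receptor, at 0.01.

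Genes that glucocorticoids induce had no common direction. Of 19 measured, 3 were higher and 3 lower in 3 of 3 pools, against 6.77% and 11.9% of all measured genes. Mt1, a metallothionein, lay at 0.24, 0.11 and 0.58 (mean 0.31 ± 0.10), while its second probe lay at -0.10, and Sult1a1, a sulfotransferase, had a mean of 0.25. Klf9, a transcription factor, lay at -0.21, -0.03 and -0.23. Its original arrays of pools 2 and 3 lay at -0.35 and -0.58 and their swaps at 0.29 and 0.13. For Mt1, pool 3 lay at 1.02 on the original array and 0.14 on the swap. With the dye effect estimated from the swapped pairs of the series subtracted, pool 1 turned to 0.03 for Klf9 and -0.06 for Mt1. Fkbp5, Sgk1 and Tsc22d3, the targets most used to read glucocorticoid action, lay at -0.01, -0.01 and -0.09. Fam107a lay at -0.01 ± 0.08, and its second probe at 0.21. Among 18 immediate early genes, 0 were higher and 2 lower in 3 of 3 pools, against the same 6.77% and 11.9%. Fos and Arc lay at 0.08 and 0.08, and Nr4a2 (0.17) was the only one past an unadjusted p under 0.05.

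Several neuropeptides of the cortex lay lower. Of 13 measured genes, 6 were lower and 1 higher in 3 of 3 pools, against 11.9% and 6.77% of all measured genes, and 3 were lower at an unadjusted p under 0.05, against 2.49%. The last count was 1 without pool 1, and 1 without pool 3, where 1 gene was also higher. Cort, the cortistatin of cortical interneurons, lay at -0.38, -0.16 and -0.16 (mean -0.23 ± 0.08), Penk, the precursor of enkephalins, at -0.15, and Crh as above. Sst and Npy, of other interneurons, lay at -0.16 and -0.08. Sst, itself a marker of such cells, was the lowest of the 12 measured interneuron genes, which ran from -0.16 to 0.07 with a median of 0.01. Of other interneuron markers, Gad1 lay at -0.05, Pvalb at -0.07 and Lhx6 at 0.07. In bulk tissue, fewer cells of a type and less RNA per cell cannot be told apart.

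**Figure D3:**
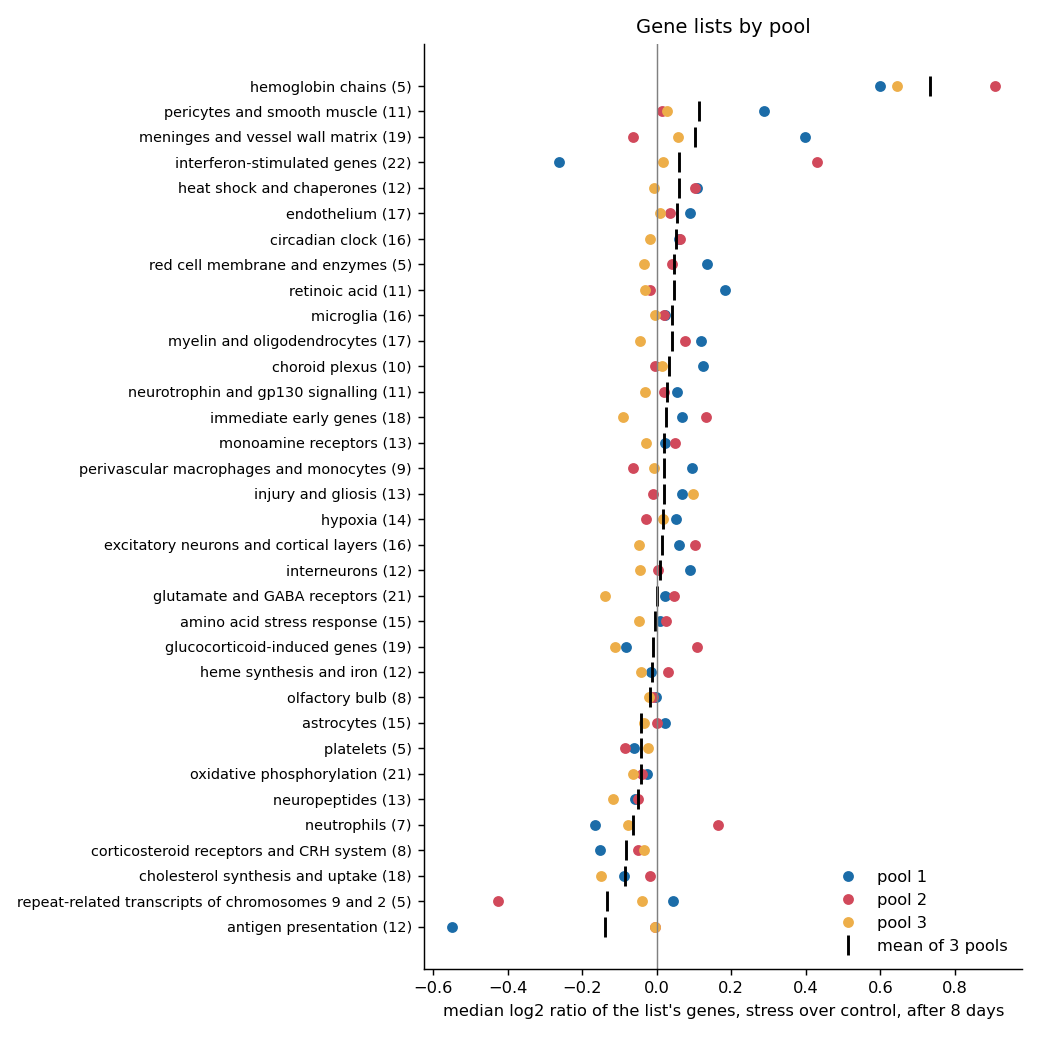
Median log2 ratio of stress over control for each list with at least 5 measured genes (number measured in brackets), by pool (colours), with the median of the 3-pool means (black). Hemoglobin chains stand alone at 0.73, and pools 1 and 2 lie on opposite sides of 0 for interferon-stimulated genes.

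Markers of neurons and glia had small ratios. The cortical markers Slc17a7, Camk2a, Gad1, Aqp4 and Cx3cr1 lay between -0.05 and 0.04. Snap25 lay at 0.14, Mbp at 0.10 and Cldn5 at 0.08, with Snap25, a synaptic protein, at an unadjusted p of 0.0175. Among olfactory bulb markers, which would mark a slice cut too far forward, Doc2g lay at -0.03, Cdhr1 at 0.07, Th at -0.01 and Omp at 0.02, and Eomes was not well above background on any array. Of 21 glutamate and GABA receptor genes, only Gabrd passed an unadjusted p under 0.05 (-0.12), and of 13 monoamine receptors only Drd4 (-0.09). Of 17 myelin genes, Cldn11 alone passed (0.15), and of 16 microglial genes none. The further lists were alike. In oxidative phosphorylation only Cox7a2 passed (-0.10), and in amino acid stress Slc38a2 (0.14) and Psat1 (-0.09). Slc38a2 lay at -0.06 and -0.17 on the original arrays of pools 2 and 3, and at 0.28 and 0.27 on their swaps. In the circadian clock Dbp passed (0.17), and in heat shock Hspb1 and Hsp90ab1 (0.10, but -0.01 in the scanner software's ratios). With the brightest probe of each gene, none passed among those of hypoxia, retinoic acid, neurotrophins, perivascular macrophages, excitatory neurons or interneurons. A dimmer probe of Ntrk2, a neurotrophin receptor, lay at 0.17 ± 0.06 (limma unadjusted p = 0.0213), and its brightest at -0.06.

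Immune genes lay on different sides of 0 in different pools. Of 22 measured interferon-stimulated genes, 0 passed an unadjusted p under 0.05 (3 were higher without pool 1), and the list's median was -0.26 in pool 1, 0.43 in pool 2 and 0.02 in pool 3. Ifi27l2a lay at -0.70, 1.46 and 0.13, and Isg15, the ubiquitin-like modifier, at -0.26, 1.27 and 0.09. The interferon-induced GTPases Igtp and Tgtp2 lay at -1.60 and -2.02 in pool 1 and at 0.21 and 0.45 in pool 2. Pool 3 lay near 0 for nearly all of them. The 12 antigen presentation genes had a median of -0.55 in pool 1, and -0.00 and -0.01 in pools 2 and 3. H2-Aa and Cd74, of the class II pathway, lay at -0.64 and -0.91 in pool 1, against -0.08 and -0.09 in pool 2. In the scanner software's ratios, H2-Aa lay at -1.44 and -0.45 in these pools, Cd74 at -1.16 and -0.32, and the medians of the interferon list were -0.60, 1.05 and 0.13. Of the 12 antigen presentation genes, 3 were lower in 3 of 3 pools, against 11.9% of all measured genes.

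**Figure D4:**
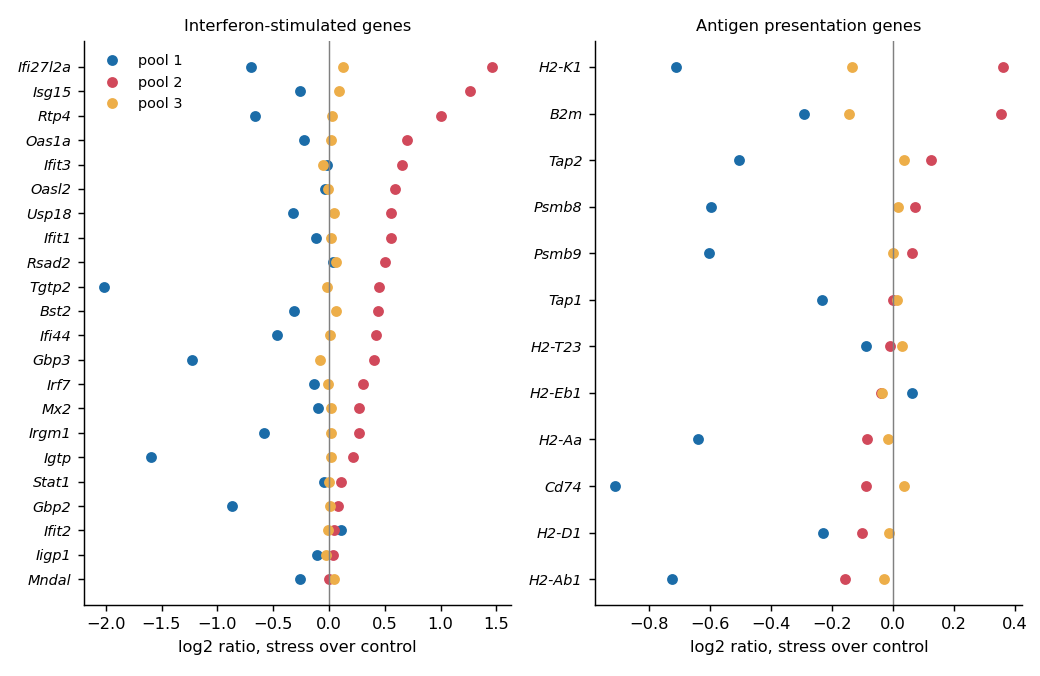
Log2 ratio of stress over control in each of the 3 pools (colours) for 22 interferon-stimulated genes (left) and 12 antigen presentation genes (right). Pool 2 lies to the right of pool 1 for most interferon-stimulated genes, with Ifi27l2a at 1.46 against -0.70, and pool 3 stays near 0.

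The genes of largest mean ratio were of separate kinds. Of 21 measured probes over 0.5 in size, 7 were higher and 14 lower. Of the 7, 6 were the hemoglobin chains and Mgp, each higher in 3 of 3 pools. The seventh was Mup19, at 2.08 in pool 1 and near 0 elsewhere. Of the 14 lower probes, 12 were over 1 in size in a single pool with both others under 0.25. Me3, a mitochondrial malic enzyme, had the lowest mean (-1.13) from a ratio of -5.50 on the swapped array of pool 3, against -0.53 on the original array of the same RNA. Pdzd3 (-2.71) and Pcdh9 (-2.22) were low in pool 1 alone. Over all measured probes there were 18 such probes in pool 1, 0 in pool 2 and 3 in pool 3, and for none of the last did both arrays lie over 1 in size.

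Across probes as a whole, pools and arrays agreed little. Across measured probes, which are not independent replicates, the correlation between pools was -0.09 for pools 1 and 2, 0.03 for pools 1 and 3 and -0.19 for pools 2 and 3. Over all probes, measured or not, an original array and its turned swap correlated at -0.09 in pool 2 and -0.10 in pool 3. The spread of ratios was 0.15 (SD over measured probes) in pool 1 and 0.09 in pools 2 and 3. The dye effect, estimated from the 8 swapped pairs of the series, correlated at 0.41 with pool 1, -0.24 with pool 2 and 0.08 with pool 3. After it was subtracted from pool 1, all 24 genes of lowest p kept their direction there. Of the 12 higher genes 9 lay above 0 on every array, as did 1.48% of all measured genes, and of the 12 lower genes 7 lay below 0 on every array, as did 2.40%. These genes were chosen from the same values.

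At 13 days other mice and other controls were measured. The spread of the 13-day pools entered the p by which the genes were chosen, so these are not wholly separate samples. All 12 higher genes were also higher in 3 of 3 pools after 13 days, against 14.2% of all measured genes and 32.5% of the 1167 genes higher in 3 of 3 pools after 8 days. Hbb-b1 lay at 1.46, 1.91 and 1.45 after 13 days, Mgp at 1.13, 0.67 and 0.64, Vim at 0.23, 0.25 and 0.24, and Fxyd5 at 0.17, 0.09 and 0.24. Of the 12 lower genes, 9 were lower in 3 of 3 pools after 13 days, against 16.9% of all measured genes and 38.4% of the 2053 genes lower in 3 of 3 pools after 8 days. Sc4mol lay at -0.34, -0.05 and -0.34 and Mlc1 at -0.16, -0.20 and -0.20. With pools 2 and 3 alone, which have dye swaps, the counts at 13 days were 12 and 9, against 23.7% and 34.0% of all measured genes. When the 12 genes each way were instead chosen by the p from the 8-day pools alone, a choice made after seeing the data, 11 of the higher and 10 of the lower genes lay the same way in 3 of 3 pools after 13 days. The time points shared slides, as each slide held 1 array of each.

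**Figure D5:**
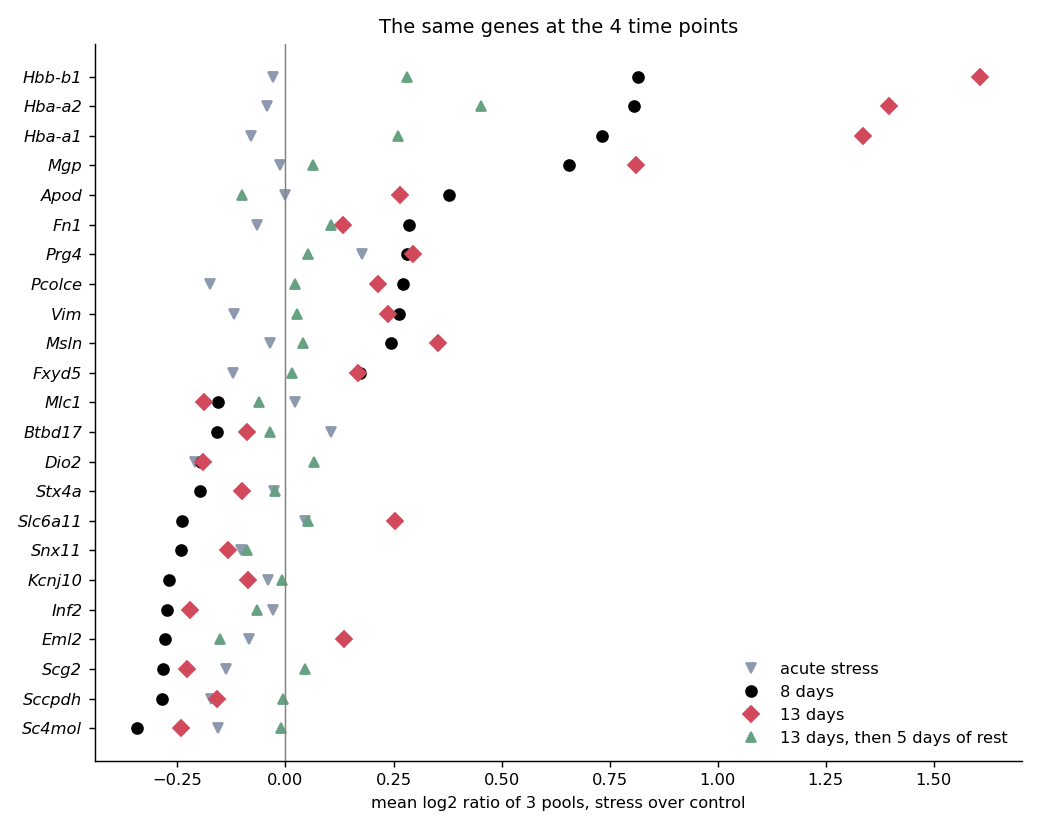
Mean log2 ratio of stress over control (3 pools) at the 4 time points for 11 of the 12 higher genes and the 12 lower genes of lowest p after 8 days. After 13 days the 11 higher genes lie above 0 and 10 of the 12 lower genes below 0, with Slc6a11 (0.25) and Eml2 (0.14) on the other side.

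The ratios were then compared between time points. In limma no probe passed for 8 days minus acute stress, 13 days minus 8 days or 8 days minus rest (0% of 39429 in each). The 5 chains of hemoglobin had means of -0.08 to 0.04 in the acute pools and of 1.34 to 1.61 in those of 13 days. The difference of 13 days minus 8 days was 0.79 ± 0.27 for Hbb-b1 and 0.60 ± 0.23 for Hba-a1. After rest their means were 0.14 to 0.45, but the pools disagreed. Hbb-b1 lay at 0.54, 0.79 and -0.49 there, and all 5 chains were below 0 in rest pool 3. This spread entered the standard errors of the 8-day means. Without rest pool 3 that of Hba-a2 was 0.08, against 0.18 with it. Mgp lay at -0.01 after acute stress, 0.81 after 13 days and 0.06 after rest. Its difference from acute stress was 0.67 ± 0.13 (limma adjusted p = 0.91; 0.0069 with the slide as a block), and from rest 0.59 ± 0.13 (0.0229 with the slide as a block). Slc6a11 had the lowest adjusted p of the 24 genes for a difference between time points. It lay at 0.40, 0.19 and 0.17 after 13 days, and 13 days minus 8 days was 0.49 ± 0.07 (limma adjusted p = 0.172). Of the 12 higher genes, 2 were higher in 3 of 3 pools after acute stress and 3 after rest. Of the 12 lower genes, 6 were lower in 3 of 3 pools after acute stress, in other mice with other controls, and 2 after rest. The shares of all measured genes at these time points were not counted, so these counts cannot be set against a background.

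Further genes that the study discusses lay near 0 or did not repeat between pools. Agxt2l1, an enzyme of astrocytes, lay at -0.45, 0.01 and 0.21. Cntfr, a cytokine receptor, lay at -0.03 on its brighter probe and -0.26 on the other. Mndal, an interferon-inducible gene, lay at -0.26, -0.00 and 0.04, with its control channel well above background on 1 array, and at -1.61, 1.05 and 0.74 in the scanner software's ratios. Slc16a10, an amino acid transporter, was well above background on 2 arrays and is not read.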

How the data were processed

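RNA pools were compared on 2-colour Agilent mouse arrays. The authors deposited the scanner output of each array (intensity of both dyes, local background and the software's log10 ratio; Feature Extraction 10.10.1.1, mm9). The authors also deposited a value table of background-corrected and normalized log2 ratios, which was used as an alternative. Its 8-day columns ran as stress over control, with correlations of 0.913 to 1.00 with the same arrays normalized here without an offset and medians of -0.0140 to 0.00883. The direction of each ratio was taken from the dye labels. Intensities were corrected by normexp (offset 50) and normalized by loess, with weight 0 for control and outlier spots, and Aquantile. Outlier spots were left out, spots of a probe and arrays of a pool averaged, and swaps turned. In limma 3.58.1 (R 4.3.3), 12 pools were fitted with a coefficient per time point. Normexp shrank dim probes: over 3331 dim measured probes the SD was 0.01 to 0.15 by array, against 0.46 to 0.62 for the software's ratios, so that low signals understate a change. The number of arrays limits the precision, and standard errors and p-values rest on the spread between pools of all time points.

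Gene symbols are those of the array, and 27427 of 28829 RefSeq accessions matched a current gene. A list took the brightest measured probe of each gene. Genes were named where called in limma or with the slide as a block, where among the 12 of lowest p each way with 3 of 3 pools alike, as up to 2 of lowest p per list, or because the study discusses them. Others named were chosen after their values were seen, and some genes are not reported here. List counts without a pool and the software's ratios by pool and list were added after seeing the data. The groups and lists were chosen with earlier results of these data known. No value column was left unassigned. The fit was tested on simulated data.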

Additional observations from a re-analysis of the deposited data

Results flagged for a closer look

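In the fit of single arrays with the slide as a block, the change of Mgp after 8 days exceeded that after acute stress by 0.64 and that after rest by 0.58 (log2; limma adjusted p = 0.0069 and 0.0229), and the transcript ENSMUST00000103426 (mm9 chr12:114659630-114659689) was lower after 8 days than after acute stress by a difference of -0.62 (adjusted p = 0.0428). Without the slide, in limma over 12 pools, none of these passed.

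For the genes that follow, every pool of another time point lay on the other side of 0 from every pool of 8 days. They were taken from named genes that lay the same way in 3 of 3 pools after 8 days. The share of all measured genes that did so was not counted. Some of the values were very small, with the acute pools of Mlc1 at 0.02, 0.04 and 0.01. These differences passed no test in limma. After acute stress Vim lay at -0.12, Pcolce at -0.17, Fxyd5 at -0.12, Mlc1 at 0.0221 and Btbd17 at 0.11. After 13 days Slc6a11 lay at 0.25 and Eml2 at 0.14. After rest Slc6a11 lay at 0.0520 and Apod at -0.10.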

How the results depend on the processing

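The count of probes called after 8 days (0 in limma, with 944 at an unadjusted p under 0.05) was 1 with array quality weights, 1 with a dye term, 1 with the scan day as a block (Mgp in each) and 4 with the slide as a block, and 0 to 2 when a pool of any time point was left out. Without rest pool 3 these were Hba-a1 and Hba-a2, and without 13 days pool 1 it was Mgp. For 8 days minus acute stress, 0 became 1 with array quality weights, 1 with the dye effect subtracted, 1 with a dye term and 2 with the slide as a block, and for 8 days minus rest it became 1 with the slide as a block. The 944 probes became 1764 with the software's ratios, 13 with median centring in place of loess, 515 from the 8-day pools alone, 573 with a trended robust prior, 1511 with quality weights and 1572 with the slide as a block, and 462 to 1765 when a pool was left out (462 without 8 days pool 1, 1765 without pool 2). The causes were not tested.

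Same-numbered pools share slides, but only 12 of 18 pairs of them deviated together at a correlation over 0.1 (range -0.12 to 0.51), so that the numbers were not taken as pairs. With the number as a block, 1 probe was called after 8 days (Mgp), 3 for the difference from acute stress, and 2108 lay at an unadjusted p under 0.05.

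None of the 25 genes called or of lowest p turned its sign under any of 19 alternatives each. All 25 lay the same way in every pool of this time point, so leaving out 1 of these pools could not turn them. The choice of these genes thus fixed part of that outcome, and it is no separate test of their direction. Among all 92 named genes, 14 turned under at least 1 alternative. These included Slc38a2 and Enpp2 with median centring, and Hsp90ab1 with that and with the software's ratios. Of 35 list medians, 24 turned under at least 1 alternative, and those of hemoglobin chains, cholesterol, neuropeptides, corticosteroid and CRH genes, matrix, endothelium and pericytes under none.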
